A study of Homo sapiens with 12 samples.

Results

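Gene expression of 3 Hodgkin lymphoma lines was set against that of 2 other B-cell lines. Total RNA depleted of ribosomal RNA was sequenced from 3 untreated Hodgkin's lymphoma lines, KM-H2, L1236 and L428, and from 2 untreated control lines, Namalwa (Burkitt's lymphoma) and Reh (pro-B lymphoblastic leukemia). The comparison took 10 of the 12 libraries of the series, chosen by their labels: 6 from the Hodgkin lines and 4 from the controls, 2 for each line. The other 2, from Reh cells given the phorbol ester PMA, were left out. Every line is an established culture grown from 1 tumour, so 3 lines stand against 2 and the libraries of a line are not independent tumours. The Hodgkin lines were kept in IMDM and the controls in RPMI, so medium and disease cannot be told apart, and the controls themselves come from different stages of B-cell life.

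Hodgkin and Reed-Sternberg (HRS) cells, the malignant cells of classical Hodgkin lymphoma, derive from B lymphocytes but are known for having given up much of the B-cell programme. A B cell is built around its antigen receptor, whose signalling subunits and kinases are held on by a small set of transcription factors. In HRS cells that programme is known to be silenced while NF-kappaB, AP-1 and JAK-STAT signalling run without a stimulus and feed a steady output of cytokines, chemokines and their receptors. The question of the comparison was which genes set cell lines derived from such tumours apart from lines derived from other B-cell malignancies.

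Levels are FPKM, fragments per kilobase of transcript scaled to library size, and so are per length. A gene was tested where its mean FPKM reached 1 in at least 2 of the 5 lines, which left 12658 of 26210 genes. A gene was called non-overlapping where all 6 Hodgkin libraries lay above, or all 6 below, all 4 control libraries. The gap is the distance on the log2(FPKM + 1) scale between the nearest libraries of the 2 arms. Differences are the mean of the 3 Hodgkin line means minus the mean of the 2 control line means on the same scale, with the standard error (SE, 3 lines against 2) from limma, and limma's p-values were Benjamini-Hochberg adjusted over all genes tested, with 0.05 as the threshold. That scale understates the change of genes of low level, and where an arm is listed at 0 the difference is no fold change. With 3 lines against 2 an exact permutation of lines has 10 arrangements and cannot give a two-sided p below 0.1, so none is quoted for single genes.

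Among the genes tested, 1301 (10.3%) were non-overlapping and higher in the Hodgkin lines and 1100 (8.69%) non-overlapping and lower. Most of these genes were parted by little. The median gap was 0.40 for the higher and 0.34 for the lower genes, and 99 higher and 90 lower genes had a gap over 2. Genes listed below 0.5 FPKM in every library of one arm and at 5 FPKM or more in every library of the other numbered 41 among the higher and 34 among the lower. The filter admits a gene near 0 in one arm only where it is high in the other, so lists and families are counted below over all their members in the table, filtered or not, and set beside all 26210 genes of the table, of which 5.67% lay above every control library and 4.81% below. Lists whose members all passed the filter are set beside the shares of all genes tested. By limma, 81 genes rose (0.64%) and 70 fell (0.553%) at the threshold, and 1989 genes had an unadjusted p under 0.05. Of those called, 64 of the 81 and 69 of the 70 were non-overlapping. The share of calls that rose was 53.6%, and became 68.5% with a pseudocount of 0.1 FPKM and 75% with no filter, where 15 genes rose and 5 fell. Of 59 called genes followed one by one, 10 kept the call with no filter (ANXA1, BATF, CD52, CD79A, CD79B, FKBP10, IL1R2, MME, RCSD1 and SNAR-G1) and 49 did not (limma adjusted p from 0.0692 to 0.197). Fewer genes rose and fewer fell by limma without Reh or without Namalwa, where 1 control line is left and the spread comes from the Hodgkin lines alone. Genes high in the controls alone then no longer reach the filter, which bears on the lower calls only. These fits therefore do not show what the calls owe to each control. Without KM-H2, L1236 or L428 the counts were 140 and 82, 28 and 18, and 38 and 12, and without the index 0 column of L428 they were 36 and 37. Line means differed by more than 2 on the log2 scale within the Hodgkin arm for 274 of the higher genes (21.1%) and 90 of the lower (8.18%), against 15.1% of all genes tested.

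**Figure D1:**
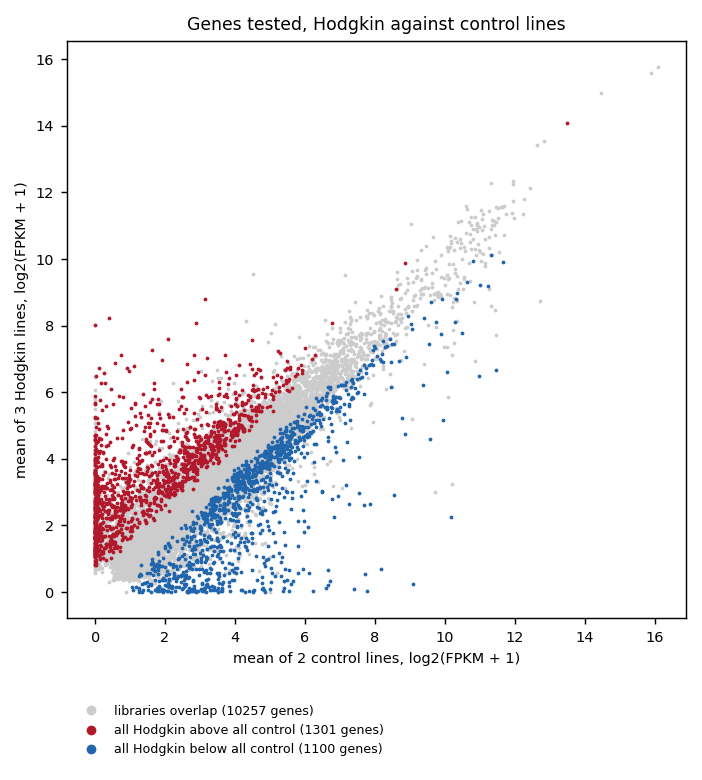
Mean level of each tested gene in the 2 control lines (x axis) and the 3 Hodgkin lines (y axis), both log2(FPKM + 1), 1 point per gene, with the 1301 non-overlapping higher genes in red, the 1100 lower genes in blue and the rest in grey. The coloured points along each axis are the genes near 0 in one arm, 41 of them at 5 FPKM or more in every Hodgkin library and 34 in every control library.

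The 2 columns of each Hodgkin line did not hold the same mixture of RNA. Summed FPKM of the SNORD genes (C/D box small nucleolar RNAs) was 121450 to 281860 in the Hodgkin columns with index 1, 7181 to 11276 in those with index 0 and 9611 to 18948 in the controls. Correlation between the columns of a line was 0.884 to 0.905 in the Hodgkin lines and 0.973 and 0.982 in Namalwa and Reh. The 17 called genes that rose but overlapped were small RNA genes high in the index 1 Hodgkin columns alone, and none is described below. Among the non-overlapping genes, 1 higher and 4 lower genes differed by more than 2 on the log2 scale between Hodgkin columns, though non-overlap itself leaves out many genes that differ so. Calls that were lost or gained with the columns of 1 index alone are given beside those genes whose test is described. As checks of scale, the median difference was −0.01 over all genes tested, −0.03 over 24 constitutive genes, of which REEP5 and CHMP2A lay above every control by gaps of 0.12 and 0.04, and −0.25 over 42 ribosomal protein genes, which all overlapped.

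Markers of the labelled cell types separated the arms. Of 12 listed HRS markers, 10 lay above every control library (83.3%, against 5.67% of all genes in the table), and of 8 listed B-cell markers 7 lay below (87.5%, against 4.81%). The sum of the HRS markers was 480.0 to 1950.0 FPKM in the Hodgkin libraries and 35.7 to 52.4 in the controls, and that of the B-cell markers 3.13 to 41.9 against 1030.0 to 1530.0. CCL22 and IL3RA did not reach the filter, and IL3RA is listed at 0 in all 10 libraries. The markers of other cell types had summed levels of at most 26.8 FPKM for T cells, 34.9 for monocytes and macrophages, 35.9 for fibroblasts and endothelium and 8.13 for erythroid cells. Much of the T-cell sum came from CD3D in KM-H2, at 13.5 and 22.5 FPKM. In L1236 the macrophage marker MARCO was at 17.2 and 22.1 FPKM and the endothelial marker PECAM1 at 17.5 and 32.0 FPKM. The part of these markers in the results was not tested.

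Promoters of 3 members show the sequence context of genes that part the arms in opposite directions: BTK, a B-cell receptor kinase, below the controls, and TNFRSF8 and EBI3, HRS products, above them. The sequences are RefSeq promoters of GRCh38.p14, 250 bases before to 50 after the start, written 5′ to 3′ along the gene, for BTK at chrX:101390747-101391046 on the minus strand, for TNFRSF8 at chr1:12063053-12063352 and for EBI3 at chr19:4229273-4229572, both on the plus strand. Capitals mark matches, on either strand, to AP-1 (TGANTCA), PU.1 (GAGGAAGT), EBF (CCCNNGGG) or the kappaB consensus. No promoter shown holds the octamer (ATGCAAAT) or the IRF motif (GAAANNGAA).
BTK: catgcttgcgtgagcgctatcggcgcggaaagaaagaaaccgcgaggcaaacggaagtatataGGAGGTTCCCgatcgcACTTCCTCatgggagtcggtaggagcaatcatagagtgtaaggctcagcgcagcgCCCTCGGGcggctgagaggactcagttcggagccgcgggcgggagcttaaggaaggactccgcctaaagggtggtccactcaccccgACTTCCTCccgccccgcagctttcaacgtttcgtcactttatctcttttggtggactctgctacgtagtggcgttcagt
TNFRSF8: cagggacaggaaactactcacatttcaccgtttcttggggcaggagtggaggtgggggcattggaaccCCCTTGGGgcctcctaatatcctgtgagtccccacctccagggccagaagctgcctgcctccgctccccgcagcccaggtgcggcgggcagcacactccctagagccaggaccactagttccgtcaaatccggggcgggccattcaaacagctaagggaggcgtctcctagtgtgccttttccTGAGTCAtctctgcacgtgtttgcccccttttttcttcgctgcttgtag
EBI3: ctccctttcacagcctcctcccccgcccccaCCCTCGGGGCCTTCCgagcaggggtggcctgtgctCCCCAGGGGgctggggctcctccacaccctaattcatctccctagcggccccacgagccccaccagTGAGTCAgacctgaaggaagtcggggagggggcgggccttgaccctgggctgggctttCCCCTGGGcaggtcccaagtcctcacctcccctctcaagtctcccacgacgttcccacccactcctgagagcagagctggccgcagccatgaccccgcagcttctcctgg
BTK holds 2 PU.1 matches, 1 EBF match and 1 kappaB match. TNFRSF8 holds 1 AP-1 and 1 EBF match. EBI3 holds 1 AP-1, 1 kappaB and 4 EBF matches, and the kappaB match shares letters with the first EBF match. Of the tested genes, 9251 matched a promoter in the table by symbol, among them 955 non-overlapping higher and 836 non-overlapping lower genes. The AP-1 letters stood in 7.76% of all 27305 promoters in the table, 4.40% of those of tested genes, 6.49% of the higher and 4.31% of the lower genes. The octamer stood in 1.80%, 1.24%, 1.05% and 2.15% of the same 4 sets, the kappaB consensus in 10.8%, 12.9%, 14.8% and 12.9%, EBF in 18.6%, 22.7%, 25.9% and 24.2%, PU.1 in 2.54%, 2.63%, 2.41% and 2.87%, and IRF in 8.29%, 6.71%, 7.23% and 5.86%. Over the few genes with a gap above 2, the AP-1 letters stood in 8 of 68 higher (11.8%) and 6 of 67 lower genes (8.96%), and the octamer in 1 (1.47%) and 4 (5.97%), the latter with VPREB3 and PRKCB. These are matches of letters only.

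Genes of the B-cell receptor machinery had the largest share below the controls of the functional lists. Of 24 listed genes of the receptor and its proximal signalling, 16 lay below every control library (66.7%, against 4.81% of all genes in the table) and none above. By limma 8 of the 24 fell, where 0.553% of all genes tested did, and members near 0 in the Hodgkin lines were tested only because they were high in the controls. CD79B (17:62006098-62009696, GRCh37, minus strand), one of the paired signalling subunits of the receptor, was at 0 to 0.592 FPKM (median 0.151) in the Hodgkin libraries and at 591 and 889 FPKM in Namalwa and 394 and 414 FPKM in Reh. Its gap of 7.95 was the widest of all genes tested, and the difference was -8.84 ± 0.41 (limma adjusted p = 0.00315). CD79A (19:42381349-42385439, GRCh37), the partner subunit, was at 0 to 2.55 FPKM (median 0.573) against 168 and 287 FPKM in Namalwa and 336 and 429 FPKM in Reh, a difference of -7.48 ± 0.41 (limma adjusted p = 0.00348).

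Of the kinases that carry the signal inward, BTK and SYK fell, while BLK and LYN overlapped. BTK (X:100604326-100645784, GRCh37, minus strand), whose promoter is printed above, was at 0 to 0.487 FPKM (median 0.16) against 47 and 57 FPKM in Namalwa and 39.8 and 47.2 FPKM in Reh, a difference of -5.36 ± 0.41 (limma adjusted p = 0.00647). SYK, the kinase recruited directly by the receptor subunits, was at 2.89 and 1.9 FPKM in KM-H2 and at no more than 0.00927 FPKM in L1236 and L428, against 91.1 and 120.2 FPKM in Namalwa and 43.1 and 44.8 FPKM in Reh (difference -5.52 ± 0.72, limma adjusted p = 0.0325, and 0.0924 with a pseudocount of 0.1 FPKM). CD72, VPREB3 and PTPRCAP also fell, by 3.54, 6.0 and 5.25 on the log2 scale. The call of PTPRCAP was lost with a pseudocount of 0.1 FPKM (limma adjusted p = 0.0622) and that of CD72 with a filter at 5 FPKM (0.12) and without small RNA genes (0.0512) and with the Hodgkin columns of index 1 alone (0.0648). The adaptor BLNK, the inhibitory coreceptor CD22, the protein kinase PRKCB, CD24, PIK3AP1 and CD53 lay below every control library with differences of -4.01, -3.97, -4.06, -5.64, -4.57 and -3.47 but did not pass the test (limma adjusted p from 0.0585 to 0.232). CD22 passed with the Hodgkin columns of index 0 alone (0.0451). CD53 was highest in KM-H2: it was at 37 and 35.9 FPKM there, at 0.83 and 2.02 in L1236 and at 5.33 and 4.65 in L428. Not every member separated. BLK, LYN, CD37, CR2, TCL1A, FCRLA and PLCG2 overlapped, and the complement receptor CR2 reached 231 and 97.7 FPKM in KM-H2, above the 2.12 FPKM of the highest control. PLCG2 was at 298 to 386 FPKM in 4 Hodgkin libraries and at 0.817 and 4.26 FPKM in the index 1 columns of L1236 and L428. MS4A1, which encodes CD20, missed the filter, as did CD180, though both lay below every control. MS4A1 was listed at 0 in all 6 Hodgkin libraries, at 5.98 and 14.6 FPKM in Namalwa and at 0.161 and 0.229 FPKM in Reh.

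**Figure D2:**
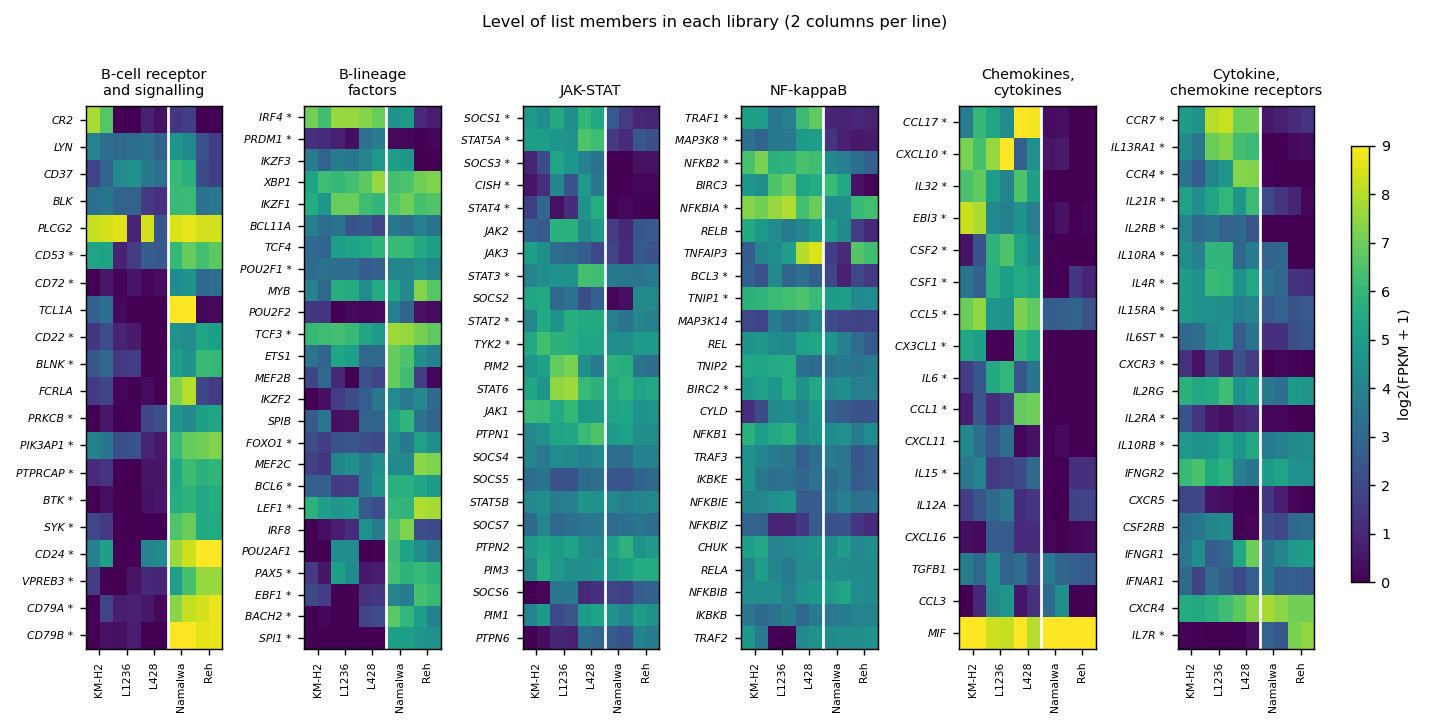
Level of members of 6 gene lists that passed the filter in the 10 libraries, as log2(FPKM + 1) by colour, with 2 columns per line, the Hodgkin lines left and the controls right of the white bar, and an asterisk on non-overlapping genes. Most B-cell receptor genes are dark in the Hodgkin columns, and most chemokines and cytokines are dark in the control columns. Members near 0 in most lines did not pass the filter and are not drawn.

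Transcription factors of the B lineage separated less evenly. All 25 listed factors were tested: 9 lay below every control library (36%, against 8.69% of all genes tested), 2 above (8.0%, no more than the 10.3% of all genes tested) and 14 overlapped, with a median difference of −2.01. SPI1 (11:47376411-47400098, GRCh37, minus strand), which encodes PU.1, was listed at 0 in all 6 Hodgkin libraries against 33.8 and 33.6 FPKM in Namalwa and 24.9 and 22.4 FPKM in Reh, and was the one factor of the list that fell (difference -4.87 ± 0.41, limma adjusted p = 0.00966). EBF1, needed to commit a progenitor to the B lineage, was at 0 to 3.01 FPKM (median 1.63) against 15.3 and 13.1 FPKM in Namalwa and 82.9 and 66.2 FPKM in Reh (difference -4.0 ± 0.86, limma adjusted p = 0.121). PAX5, the factor that holds B-cell identity, was at 1.84 and 0.446 FPKM in KM-H2, 0.537 and 0.62 in L428 and 33.8 and 19.8 in L1236, against 77.8 and 56.6 FPKM in Namalwa and 64.1 and 52.5 FPKM in Reh. PAX5 was thus highest in L1236 among the Hodgkin lines, and the difference of -3.84 ± 1.23 did not pass the test (limma adjusted p = 0.233). POU2AF1, a coactivator of octamer-binding factors, had the same shape, with 20.3 and 19.4 FPKM in L1236 and at most 0.026 FPKM in the other Hodgkin libraries, and overlapped. BACH2, FOXO1, BCL6, LEF1, TCF3 and POU2F1 were the other factors below every control, with differences from -4.73 (BACH2) to -1.15 (POU2F1).

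IRF4 and PRDM1, which act when a B cell turns towards a plasma cell, were the 2 listed factors above every control. IRF4 was at 74.8 to 194 FPKM (median 146) against 23.7 and 29 FPKM in Namalwa and 1.17 and 0.6 FPKM in Reh. The controls lay far apart from each other, and the difference of 4.30 ± 1.08 missed the threshold (limma adjusted p = 0.159). PRDM1 was low in KM-H2 and L1236, at 0.273 to 1.33 FPKM, and at 9.49 and 12.8 FPKM in L428, against at most 0.155 FPKM in the controls. Of 20 germinal-centre and plasma-cell genes in the table, 7 lay below every control library (35%, against 4.81%), PRDM1 alone above and 12 on neither side. CD38 and MME (CD10), surface enzymes of germinal-centre and precursor cells, fell. CD38 was at 0 to 1.35 FPKM (median 0.0565) against 44.9 and 33.5 FPKM in Namalwa and 51.6 and 48.5 FPKM in Reh (limma adjusted p = 0.0119, and 0.0515 with a pseudocount of 0.1 FPKM). MME was listed at 0 in KM-H2 and L1236, at 0.641 and 0.382 FPKM in L428 and at 76.7 and 88.3 FPKM in Namalwa and 123 and 118 FPKM in Reh (difference -6.46 ± 0.43, limma adjusted p = 0.00529).

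Several genes of the precursor B cell lay below both controls. Of 20 listed, 8 lay below every control library (40%, against 4.81%), 1 above and 11 on neither side. By limma 4 of the 20 fell, where 0.553% of all genes tested did, and 11 of the 20 were not tested. Members near 0 in the Hodgkin lines were tested only because they were high in both controls. RAG2, one part of the recombinase that assembles receptor genes, was listed at 0 in 5 Hodgkin libraries and at 0.0656 FPKM in the other, against 40.8 and 30.8 FPKM in Namalwa and 161 and 152 FPKM in Reh (difference -6.23 ± 0.67, limma adjusted p = 0.0196). RAG1, its partner, was at 0.0412 to 0.488 FPKM (median 0.287) against 35.7 and 19.2 FPKM in Namalwa and 435 and 384 FPKM in Reh, and did not pass (limma adjusted p = 0.0661), though it did with a pseudocount of 0.1 FPKM (0.0484). IGLL1, a surrogate light chain whose reads can be shared with related lambda genes, was at 0 to 0.237 FPKM (median 0) against 48 and 70.2 FPKM in Namalwa and 513 and 472 FPKM in Reh (difference -7.31 ± 0.88, limma adjusted p = 0.0252). The exception was MEIS1, a homeobox factor of blood progenitors, at 7.52 to 11.3 FPKM (median 10.6) against at most 0.0384 FPKM, which rose by 3.42 ± 0.40 (limma adjusted p = 0.0233, and 0.053 with a filter at 5 FPKM). DNTT, ERG and FLT3 were above 1 FPKM in Reh alone of the 5 lines and missed the filter.

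Some factors of other lineages and inhibitors of B-lineage E proteins lay above the controls. Of 25 listed, 6 lay above every control (24%, against 5.67%), 1 below (4.0%, against 4.81%) and 18 on neither side. MSC (musculin), a repressor that can occupy E-protein sites, was at 16.9 to 101 FPKM (median 27.3) and listed at 0 in all 4 control libraries (limma adjusted p = 0.0415). GATA3, the T-helper lineage factor, was at 3.54 to 28.4 FPKM (median 17.7) against at most 0.141 FPKM, TOX at 2.6 to 12.3 FPKM (median 5.89) against at most 0.0257 FPKM and ID2, an E-protein inhibitor, at 42.1 to 202 FPKM (median 84) against 20.1 and 16.9 FPKM in Namalwa and 8.48 and 10.3 FPKM in Reh. None of these 3 passed the test (limma adjusted p = 0.0668, 0.12 and 0.0591), though GATA3 did with a pseudocount of 0.1 FPKM (0.0348) and with the Hodgkin columns of index 0 alone (0.0379). RUNX2 was far higher in L428 (52.3 and 95.1 FPKM) than in KM-H2 and L1236 (2.24 to 5.11 FPKM). ID3 went the opposite way from ID2, at 1.47 to 21.6 FPKM (median 3.53) against 274 and 388 FPKM in Namalwa and 154 and 182 FPKM in Reh, and fell (difference -5.23 ± 0.80, limma adjusted p = 0.0491). That call was lost with a pseudocount of 0.1 FPKM (limma adjusted p = 0.0627), without small RNA genes (0.0512), without the trend (0.0546) and with the Hodgkin columns of index 0 alone (0.0655).

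AP-1 factors, which bind DNA as dimers of the JUN, FOS and ATF families, lay above the controls wherever they separated. Of 16 listed members, 6 lay above every control library (37.5%, against 5.67%) and none below. By limma 3 of the 16 rose, where 0.64% of all genes tested did, and 6 of the 16 were not tested. BATF (14:75988798-76013336, GRCh37), a partner of JUN proteins at composite sites with IRF4, was at 69.4 to 134 FPKM (median 116) against 0.133 and 0.913 FPKM in Namalwa and 1.2 and 1.66 FPKM in Reh, a difference of 5.80 ± 0.37 (limma adjusted p = 0.00455). JUNB was at 136 to 295 FPKM (median 178) against 23.9 and 21.8 FPKM in Namalwa and 22.1 and 18.6 FPKM in Reh (difference 3.06 ± 0.35, limma adjusted p = 0.0233). ATF3, a stress-induced member, was at 35.9 to 177 FPKM (median 59.1) against 3.88 and 2.41 FPKM in Namalwa and 6.42 and 6.15 FPKM in Reh (difference 3.65 ± 0.48, limma adjusted p = 0.0346). BATF3 and JUN lay above every control with differences of 5.62 ± 0.94 and 3.42 ± 0.64 and missed the threshold (limma adjusted p = 0.0628 and 0.0845). BATF3 passed with the Hodgkin columns of index 0 alone (0.0399). BATF3 was lower in KM-H2 (72 and 31.9 FPKM) than in the other Hodgkin lines (189 to 395 FPKM). BATF2 also lay above every control but missed the filter, at 0.0819 to 0.709 FPKM. FOS overlapped, at 1.03 to 5.84 against 0.205 to 1.31 FPKM.

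Members of the NF-kappaB pathway lay above the controls where they separated, though most overlapped. All 24 listed genes passed the filter: 7 lay above every control (29.2%, against 10.3% of all genes tested) and none below (against 8.69%). The other 17 overlapped (70.8%, against 81% of all genes tested). None of the 24 passed the test, and the median difference was 1.05. TRAF1, an adaptor of TNF receptors and a known target, was at 10.5 to 111 FPKM (median 32.8) against 0.961 and 0.864 FPKM in Namalwa and 1.02 and 0.804 FPKM in Reh (difference 4.16 ± 0.79, limma adjusted p = 0.0909). NFKB2, which encodes the p100 precursor of the non-canonical branch, was the one subunit that separated, at 54.1 to 147 FPKM (median 79.4) against 18.2 and 13.5 FPKM in Namalwa and 8.69 and 5.83 FPKM in Reh (difference 2.78 ± 0.46, limma adjusted p = 0.0629). MAP3K8, TNIP1, BCL3, BIRC2 and NFKBIA, the inhibitor that the pathway induces, made up the rest, and NFKBIA had a gap below 0.01 because Reh stood at 67.5 and 77.3 FPKM. Subunits NFKB1, REL, RELA and RELB overlapped, with differences of 0.86 ± 0.43, 1.20 ± 0.54, -0.10 ± 0.35 and 1.56 ± 0.98. TNFAIP3, which encodes the deubiquitinase A20, differed among the lines more than between the arms, with 246 and 355 FPKM in L428, 5.07 and 16.6 in KM-H2, 95.2 and 73.8 in Reh and 2.12 and 1.13 in Namalwa.

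In the JAK-STAT pathway some signal carriers and feedback inhibitors lay above the controls. Of 25 listed genes, which all passed the filter, 9 lay above every control library (36%, against 10.3%), none below and 16 overlapped, with a median difference of 0.83. SOCS1, an inhibitor that STATs induce, was at 19.7 to 61.2 FPKM (median 34) against 4.69 and 2.01 FPKM in Namalwa and 0.978 and 0.906 FPKM in Reh and rose by 3.57 ± 0.52 (limma adjusted p = 0.0429, 0.0503 with a pseudocount of 0.1 FPKM and 0.0656 with the Hodgkin columns of index 1 alone). STAT5A was at 23 to 90.2 FPKM (median 31.3) against 1.9 and 1.15 FPKM in Namalwa and 4.54 and 3.6 FPKM in Reh (difference 3.51 ± 0.63, limma adjusted p = 0.0742). STAT2, STAT3, STAT4, SOCS3, CISH and TYK2 also lay above every control, with gaps from 0.10 (STAT2) to 0.54 (SOCS3). JAK2 missed by a gap of -0.02: it was at 52.4 and 53.1 FPKM in L1236 and 18.1 and 28.4 in L428, but at 5.84 and 4.99 in KM-H2 against 4.36 and 5.06 in Reh. STAT6 overlapped, at 182 and 206 FPKM in L1236 and 25.9 to 206 over all Hodgkin libraries against 35.5 to 56 in the controls.

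Several chemokines and cytokines lay above the controls. Of 31 in the table, 12 lay above every control library (38.7%, against 5.67%), none below and 19 on neither side. The 14 that did not pass the filter were near 0 in most lines. IL32, a pro-inflammatory cytokine, was at 16 to 111 FPKM (median 59.4), was listed at 0 in all 4 control libraries and rose (limma adjusted p = 0.0232, and 0.0504 with the Hodgkin columns of index 1 alone). CCL17, the chemokine that draws T-helper cells and a serum marker of the disease, was at 705 and 454 FPKM in L428, 12.6 and 62.7 in KM-H2 and 37.7 and 19.8 in L1236, against at most 0.267 FPKM (difference 6.12 ± 1.34, limma adjusted p = 0.125). EBI3 (19:4229520-4237525, GRCh37), a subunit of IL-27 and IL-35, was at 312 and 235 FPKM in KM-H2 and 13.4 to 23.7 in the other Hodgkin lines, against at most 0.362 FPKM (difference 5.28 ± 1.24, limma adjusted p = 0.139). CXCL10 was highest in L1236 (192 and 621 FPKM) and lowest in L428 (5.58 and 21.7 FPKM). CSF2, IL6, CCL1 and CX3CL1 were listed at 0 in all 4 control libraries, and each varied widely over the Hodgkin lines: CCL1 was at 113 and 127 FPKM in L428 and at 0.629 to 4.24 elsewhere, IL6 at 42.7 and 60.9 in L1236 and CX3CL1 at 0.0145 and 0.0526 in L1236 and 32.5 to 60.2 in the other Hodgkin lines. CCL5, CSF1, IL15 and IL13 were the other 4. Some members below the filter were high in a single line. CCL2 was at 526 and 584 FPKM in L1236 and listed at 0 in the other 8 libraries, IL5 was at 21.4 and 34.8 FPKM and IL13 at 13.4 and 19.7 FPKM in L428.

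Receptors for these signals had the largest share above the controls of the functional lists. Of 27 cytokine and chemokine receptors in the table, 12 lay above every control library (44.4%, against 5.67%), 1 below and 14 on neither side. IL21R rose by 4.14 ± 0.50, from 2.94 and 1.76 FPKM in Namalwa and 0.896 and 0.128 FPKM in Reh to 20.7 to 68.5 FPKM (median 35.8) in the Hodgkin libraries (limma adjusted p = 0.0256, and 0.0504 with the Hodgkin columns of index 1 alone). IL2RB was listed at 0 in every control and was at 4.4 to 15 FPKM (median 7.3) (limma adjusted p = 0.0422, 0.11 with a filter at 5 FPKM and 0.0648 with the Hodgkin columns of index 1 alone). IL13RA1 was at 10.6 to 156 FPKM (median 74.5) against at most 0.242 FPKM, CCR7 at 22.8 to 303 FPKM (median 129.9) against at most 1.59 FPKM and CCR4 at 5.21 to 165 FPKM (median 21.5) against at most 0.0686 FPKM. All 3 were lowest in KM-H2 and missed the threshold (limma adjusted p = 0.0626, 0.0651 and 0.151), though IL13RA1 passed with a pseudocount of 0.1 FPKM (0.0348) and with the Hodgkin columns of index 0 alone (0.0438). IL7R, the receptor of precursor lymphocytes, was the one below, at 0 to 0.302 FPKM (median 0.0385) against 6.11 and 4.54 FPKM in Namalwa and 146 and 183 FPKM in Reh (difference -4.91 ± 1.29, limma adjusted p = 0.176). Outside that list, the receptor gene with the widest gap was IL1R2 (2:102608422-102645006, GRCh37), a decoy that binds IL-1 without signalling, at 64.8 to 166 FPKM (median 81.5) against 0.401 and 0.457 FPKM in Namalwa and 0 and 0 FPKM in Reh (difference 6.31 ± 0.45, limma adjusted p = 0.00641). IL18R1, also outside the list, rose as well, from at most 0.094 FPKM to 12.5 to 58.7 FPKM (median 19.5) (difference 4.46 ± 0.48, limma adjusted p = 0.0196). CSF1R, the myeloid growth factor receptor, missed the filter, with 1.13 and 2.05 FPKM in KM-H2, 0.246 and 0.463 in L1236, 0.665 and 1.10 in L428, 0.114 and 0.129 in Namalwa and 0.202 and 0.285 in Reh, so that the lowest Hodgkin library lay below the highest control.

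**Figure D3:**
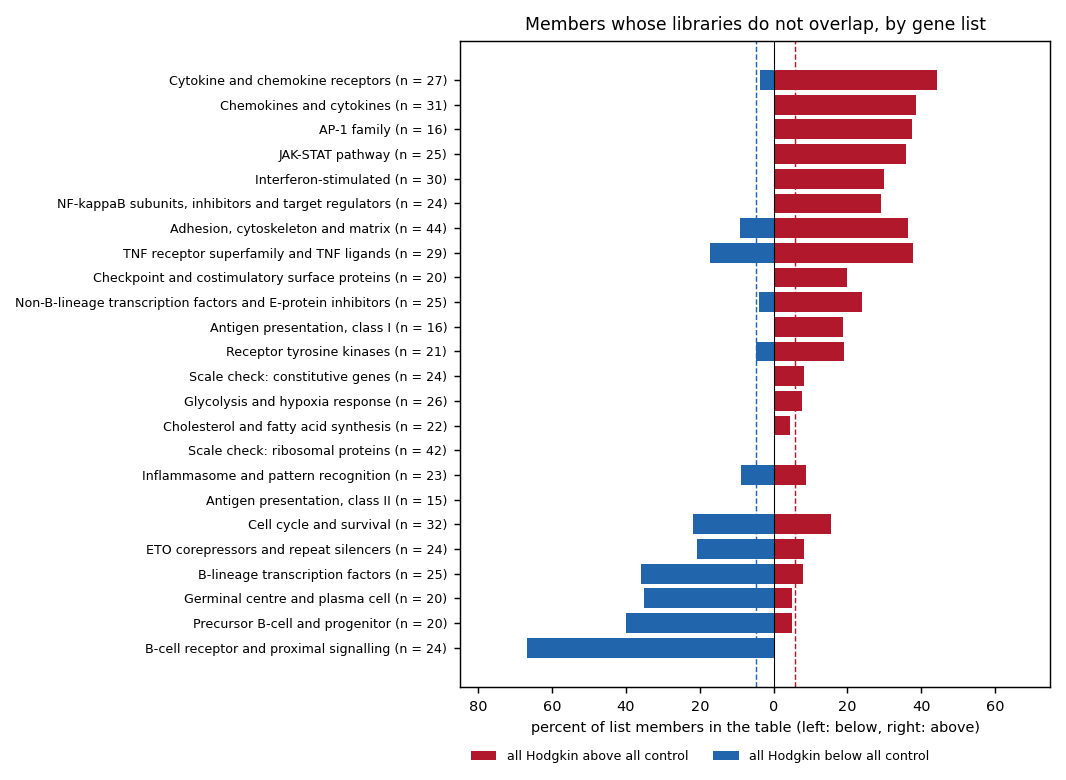
Percent of the members of each list in the table, with no filter, that lay above every control library (red, right) or below every control library (blue, left), with the shares of all genes in the table as dashed lines (5.67% and 4.81%) and lists ordered by the right share minus the left. Cytokine and chemokine receptors (12 of 27) and chemokines and cytokines (12 of 31) reach furthest right, and B-cell receptor genes (16 of 24) and precursor B-cell genes (8 of 20) furthest left.

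TNF receptors and ligands split. Of 29 listed, 11 lay above every control (37.9%, against 5.67%), 5 below (17.2%, against 4.81%) and 13 on neither side. Of the 26 that passed the filter 42.3% lay above, against 10.3% of all genes tested, and 19.2% below, against 8.69%. TNFRSF8 (1:12123360-12204264, GRCh37), which encodes CD30, the diagnostic surface receptor of HRS cells, was at 19.1 to 63.7 FPKM (median 29.5) against 0.505 and 0.494 FPKM in Namalwa and 0.0298 and 0.0882 FPKM in Reh, a rise of 4.65 ± 0.48 (limma adjusted p = 0.0189). FAS, a death receptor, was at 39 to 161 FPKM (median 62.7) against 2.35 and 2.16 FPKM in Namalwa and 1.26 and 3.29 FPKM in Reh (difference 4.42 ± 0.48, limma adjusted p = 0.0197). CD40, TNFRSF9, TNFRSF11A (RANK), TNFRSF14, LTA, TNFSF9, TNFSF10, TNFSF13B and TNFSF14 were also above, with gaps up to 1.83 (TNFRSF9). LTB lay below every control, at 0 to 0.98 FPKM (median 0.202) against 11.4 and 4.24 FPKM in Namalwa and 63.5 and 91.2 FPKM in Reh, while LTA, with which its product forms a heterotrimer, lay above, at 29.6 to 116 FPKM (median 51.4) against 0.412 and 0.188 FPKM in Namalwa and 6.8 and 10.6 FPKM in Reh. TNFRSF13C, the BAFF receptor of B cells, TNFRSF1A, TNFRSF1B and TNFRSF21 were below as well.

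Surface proteins through which tumour cells meet T cells separated in part. Of 20 listed checkpoint and costimulatory genes, 4 lay above every control (20%, against 5.67%) and none below, and none of the 15 that passed the filter passed the test. The PD-1 ligands CD274 (PD-L1) and PDCD1LG2 (PD-L2) were highest in L1236, at 29.9 and 33.1 and 33.8 and 55.6 FPKM, and at most 7.28 and 10.5 FPKM in the other Hodgkin lines, against at most 0.232 and 0.185 FPKM in the controls. CD86 was at 8.02 to 101 FPKM (median 35.9) against 0.046 to 4.28 FPKM. LGALS1 (galectin-1) was at 171 to 911 FPKM (median 533) against 0.533 and 3.68 FPKM in Namalwa and 36.7 and 20.7 FPKM in Reh (difference 5.66 ± 1.07, limma adjusted p = 0.0864). Antigen presentation genes mostly overlapped, as did 81% of all genes tested. All 15 class II genes overlapped, among them CIITA, the class II transactivator (0.04 ± 0.52), CD74 (0.28 ± 0.41) and HLA-DRA (0.23 ± 0.59). Of 16 class I genes, TAP1, TAPBP and PSMB9 lay above every control, 18.8% against 10.3% of all genes tested.

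Interferon-stimulated genes lay on the same side where they separated: 9 of 30 were above every control (30%, against 5.67%), none below, and none of the 29 that passed the filter passed the test. GBP2 was at 3.87 to 22.1 FPKM (median 10.8) against at most 0.103 FPKM (difference 3.41 ± 0.54, limma adjusted p = 0.0538, 0.0291 with a pseudocount of 0.1 FPKM, 0.0447 without the trend and 0.0355 with the Hodgkin columns of index 1 alone), GBP5 was at 1.5 to 78.6 FPKM (median 20.5) and listed at 0 in all 4 controls, and IFIH1, a sensor of double-stranded RNA, was at 12.6 to 83.9 FPKM (median 43.8) against 2.49 and 2.26 FPKM in Namalwa and 4.34 and 4.85 FPKM in Reh. Among 23 inflammasome and pattern recognition genes, NLRP1 and TMEM173 (STING) were above and TLR10 and TLR9 below, the latter under the filter. These shares (8.7% each way) were near those of all genes in the table (5.67% and 4.81%). NLRP1 was at 18.4 to 37.8 FPKM (median 27.7) against 1.92 and 1.26 FPKM in Namalwa and 6.01 and 5.17 FPKM in Reh (difference 2.80 ± 0.48, limma adjusted p = 0.0689). TLR10, a receptor of B cells, was at 0 to 0.16 FPKM (median 0.0382) against 16.3 and 37.4 FPKM in Namalwa and 2.47 and 4.55 FPKM in Reh.

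Adhesion, cytoskeleton and matrix genes were the longest list, with 16 of 44 above every control (36.4%, against 5.67%) and 4 below (9.09%, against 4.81%). Of the 38 that passed the filter 42.1% lay above, against 10.3% of all genes tested, and 7.89% below, against 8.69%. ANXA1 (9:75766781-75785309, GRCh37), a phospholipid-binding annexin, was at 39 to 111 FPKM (median 53.3) and listed at 0 in all 4 controls (limma adjusted p = 0.00579). ICAM1, the ligand of LFA-1, was at 71.2 to 212 FPKM (median 97.8) against 8.41 and 10.8 FPKM in Namalwa and 3.78 and 1.75 FPKM in Reh (difference 4.23 ± 0.60, limma adjusted p = 0.0414, and 0.057 with the Hodgkin columns of index 1 alone). FSCN1 (fascin), an actin bundler used to recognise HRS cells, was at 78.3 to 687 FPKM (median 148) against 0.116 and 0.132 FPKM in Namalwa and 15.3 and 14.4 FPKM in Reh. VCAM1 and CD44 were also listed at 0 in every control and at 1.93 to 42.7 and 4.9 to 28.9 FPKM in the Hodgkin libraries. S100A4, CD9 and CD81, a tetraspanin like CD9, lay below, with differences of -3.95 ± 0.61, -2.83 ± 0.75 and -1.42 ± 0.54 (S100A4 passed the test with the Hodgkin columns of index 0 alone, limma adjusted p = 0.0463), as did CNN3, which missed the filter. VIM (vimentin) overlapped only through Reh, at 469 and 423 FPKM against 0.207 and 0.118 in Namalwa and 420.2 to 1529 in the Hodgkin libraries. Of 21 receptor tyrosine kinases, 4 lay above (19%, against 5.67%) and 1 below. MET was at 11.4 to 67.6 FPKM (median 16.9) against at most 0.205 FPKM (limma adjusted p = 0.0626, and 0.0348 with a pseudocount of 0.1 FPKM), and DDR2 at 2.83 to 19.2 FPKM (median 14.1) against at most 0.173 FPKM. INSR, the insulin receptor, fell, from 13.9 and 10.1 FPKM in Namalwa and 46.5 and 36.2 FPKM in Reh to 0 to 0.132 FPKM (median 0.0336) in the Hodgkin lines (difference -4.47 ± 0.60, limma adjusted p = 0.0351, and 0.0629 with a filter at 5 FPKM).

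Cell-cycle and survival genes showed an exchange of D-type cyclins, the activators of CDK4 and CDK6. CCND2 was at 62.5 to 247 FPKM (median 119.9) against 0.016 and 0 FPKM in Namalwa and 0.899 and 1.57 FPKM in Reh and rose by 6.30 ± 0.57 (limma adjusted p = 0.0118). CCND3 was at 11.3 to 28.3 FPKM (median 14.9) against 127 and 164 FPKM in Namalwa and 257 and 218 FPKM in Reh and fell (difference -3.47 ± 0.41, limma adjusted p = 0.024). In the whole list of 32, 5 lay above (15.6%, against 5.67%) and 7 below (21.9%, against 4.81%). Of the 29 that passed the filter 17.2% lay above, against 10.3% of all genes tested, and 24.1% below, against 8.69%. BCL2A1 and CFLAR, inhibitors of apoptosis, were above every control, at 16.4 to 179 FPKM (median 41.2) and 20.7 to 224 FPKM (median 127) against at most 5.07 and 8.22 FPKM, with CDKN1B and XIAP at gaps of 0.02 and 0.01. MYC was at 14 to 84.1 FPKM (median 48.9) against 148 and 123 FPKM in Namalwa and 147 and 140.1 FPKM in Reh (difference -1.78 ± 0.66, limma adjusted p = 0.282), and RB1, MDM2, CDKN2C, E2F1 and BID lay below with it. Of 24 corepressors and silencers of repeats, GTSF1 and APOBEC3B lay above (8.33%, near the 5.67% of all genes in the table) and DNMT3B, CBFA2T3, UHRF1, KDM1A and SETDB1 below (20.8%, against 4.81%). Of the 22 that passed the filter 9.09% lay above, against 10.3% of all genes tested, and 22.7% below, against 8.69%. GTSF1 (12:54849734-54867386, GRCh37, minus strand), a germline factor of the piRNA pathway, was at 42.7 to 173 FPKM (median 140.5) against at most 0.333 FPKM (difference 6.64 ± 0.57, limma adjusted p = 0.00983). UHRF1, which keeps DNA methylation through division, was at 4.84 to 38 FPKM (median 18.2) against 84.4 and 63.8 FPKM in Namalwa and 274 and 226 FPKM in Reh, and its Hodgkin columns with index 1 (4.84 to 7.51 FPKM) were all lower than those with index 0 (29.0 to 38.0 FPKM). UHRF1 passed the test with the index 1 columns alone (limma adjusted p = 0.0379). CBFA2T3 (ETO2) was listed at 0 in L1236 and L428, at 0.315 and 0.457 FPKM in KM-H2 and at 1.83 to 6.68 FPKM in the controls. Of 26 glycolysis and hypoxia genes, ENO2 and SLC2A3 lay above. ENO2, an enolase, rose from 0.0905 and 0 FPKM in Namalwa and 3.35 and 2.63 FPKM in Reh to 27.6 to 81.4 FPKM (median 44.7) (difference 4.51 ± 0.65, limma adjusted p = 0.0429), a call lost with a pseudocount of 0.1 FPKM (0.11) and with the Hodgkin columns of index 0 alone (0.0527). Of 22 cholesterol and fatty acid synthesis genes, STARD4 alone lay above. The share of the glycolysis and hypoxia list above the controls (7.69%) was near the 5.67% of all genes in the table. That of the cholesterol and fatty acid list, whose members all passed the filter, was 4.55%, against 10.3% of all genes tested. No member of either list lay below.

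Genes outside those lists held several of the widest gaps. On the higher side, SNAR-G1, a short RNA with near-identical copies whose reads cannot be assigned with confidence, led with a gap of 6.41. DHRS2, a mitochondrial reductase, was at 60.5 to 1401 FPKM (median 369) against 0.339 and 0.926 FPKM in Namalwa and 0.136 and 0 FPKM in Reh (difference 7.83 ± 0.85, limma adjusted p = 0.0197, and 0.0513 with the Hodgkin columns of index 0 alone), and the columns of KM-H2 themselves differed, at 1401 and 289 FPKM. RGS1, a brake on chemokine receptor signalling, was at 57 to 337 FPKM (median 135) against 0.58 and 0.85 FPKM in Namalwa and 0.83 and 0.425 FPKM in Reh (difference 6.40 ± 0.59, limma adjusted p = 0.0119). SH2D1A (SAP), the adaptor of SLAM receptors in T and NK cells, was at 15.5 to 31.6 FPKM (median 21.9) and listed at 0 in every control. MAGEB2, a cancer-testis antigen, was also at 0 in every control and at 28.6 to 119 FPKM (median 35.2). FKBP10, a collagen chaperone, and TES (testin), a focal adhesion protein, were at 20.8 to 34.4 FPKM (median 30.9) and 21.2 to 84.4 FPKM (median 28.9) against at most 0.188 and 0.266 FPKM. The long non-coding RNA LINC00152 was at 24.4 to 72.7 FPKM (median 31.4) and at 0 in every control. AHR, the aryl hydrocarbon receptor, and the keratin KRT7 were at 11.8 to 54 and 8.99 to 37.7 FPKM with every control at 0. All of these rose by the test, with limma adjusted p from 0.00315 (SNAR-G1) to 0.0373 (KRT7), and KRT7 was at 0.05004 with the Hodgkin columns of index 1 alone.

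On the lower side, RCSD1, a regulator of actin capping, had a gap of 7.2, the next after CD79B, at 0 to 0.0777 FPKM (median 0.0259) against 292 and 319 FPKM in Namalwa and 158 and 158 FPKM in Reh (difference -7.74 ± 0.43, limma adjusted p = 0.00348). CD52, a surface glycoprotein of lymphocytes, was at 0 to 1.59 FPKM (median 0.422) against 131 and 165 FPKM in Namalwa and 224 and 408 FPKM in Reh (difference -7.18 ± 0.51, limma adjusted p = 0.00632). PRDX2, a peroxidase found in most cells, was at 0 to 0.306 FPKM (median 0.0247) against 56.4 and 71.3 FPKM in Namalwa and 135 and 154 FPKM in Reh (difference -6.48 ± 0.49, limma adjusted p = 0.00647). TSPO, an outer mitochondrial membrane protein, MILR1, PLAC8 and the zinc finger gene ZNF141 were each below 0.5 FPKM in all 6 Hodgkin libraries and at or above 19.5 FPKM, the lowest control value of ZNF141, in all 4 controls. The precursor protein gene APP was at 0 to 0.397 FPKM (median 0.292) against 17.2 and 20.7 FPKM in Namalwa and 50.5 and 54.2 FPKM in Reh. HMGB1, an abundant chromatin protein, was at 27.9 to 158 FPKM (median 96.5) against 509 and 649 FPKM in Namalwa and 713 and 836 FPKM in Reh and fell (difference -3.18 ± 0.46, limma adjusted p = 0.0422). That call was lost with libraries as the unit (0.1, and 0.105 with the column index as a term), without the trend (0.0546) and with the Hodgkin columns of index 1 alone (0.0581). HMGB1 had every Hodgkin column of index 1 below its partner of index 0.

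**Figure D4:**
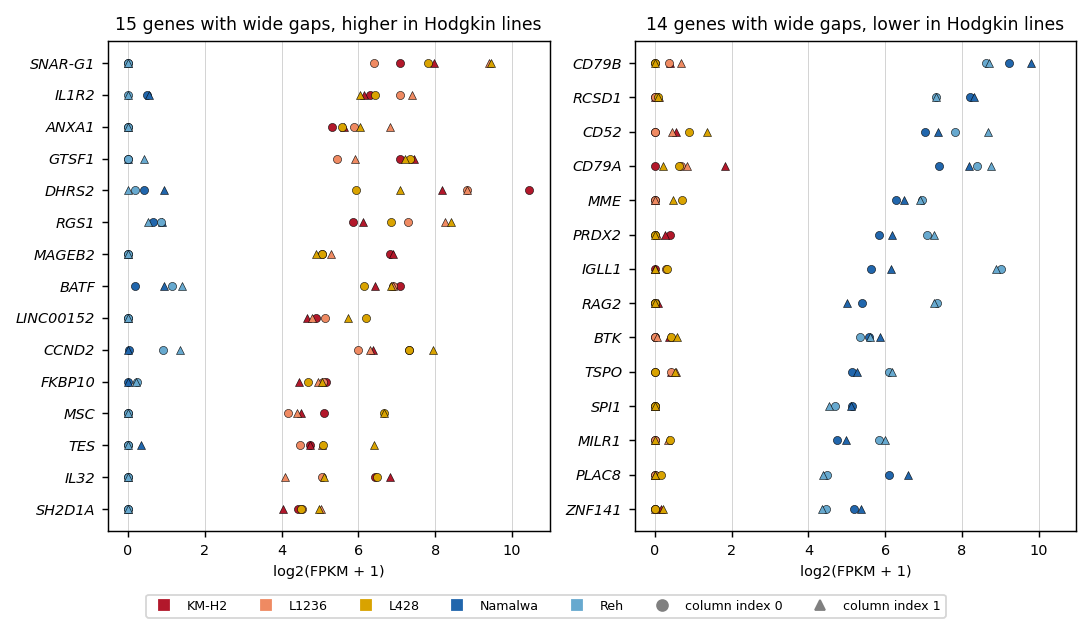
Level in each of the 10 libraries, as log2(FPKM + 1), of 15 genes with wide gaps above (left) and 14 with wide gaps below (right) the controls, with 1 colour per line, circles for column index 0 and triangles for index 1. Hodgkin and control points do not touch in any row, from a gap of 7.95 for CD79B to 4.05 for SH2D1A.

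Position in the genome was not part of any list, and the shares below were looked at after the values were seen and carry no test. Of the tested genes, 12137 had a position in the GRCh37 annotation. On chromosome 13, 66 of 216 genes (30.6%) lay below every control library, and on chromosome 22, 67 of 309 (21.7%), against 8.69% of all genes. All 3 Hodgkin lines contributed: the median of line minus control mean over the chromosome 13 genes was −0.58 in KM-H2, −0.74 in L1236 and −0.86 in L428, and the median of Namalwa minus Reh was 0.11. Over chromosome 22 the 3 medians were −0.47, −0.62 and −0.32. In the other direction, 139 of 696 genes on chromosome 3 (20%) and 72 of 392 on chromosome X (18.4%) lay above every control, against 10.3%. The longest run of neighbouring tested genes on one side was 9 genes above the controls at chr3:50378541-51421629 (ZMYND10 to DOCK3, CISH among them), followed by 8 genes below at chr20:61427825-61600937 (MRGBP to SLC17A9). HMGB1 stood in a run of 6 genes below the controls on chromosome 13, and CD79B in a run of 5 on chromosome 17 that also holds ICAM2. DNA copy number was not measured, and its part in these shares was not tested.

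**Figure D5:**
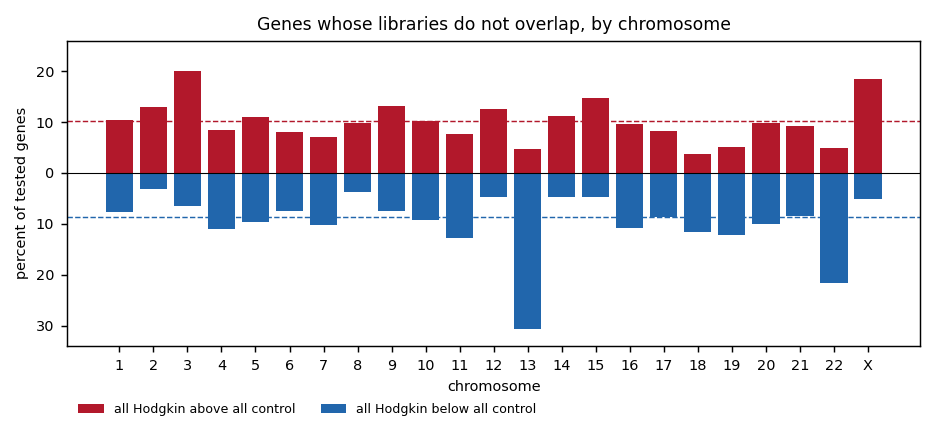
Percent of tested genes on each chromosome that lay above every control library (red, upward) or below every control library (blue, downward), with the shares of all genes tested as dashed lines (10.3% and 8.69%). Chromosome 13 (30.6%) and chromosome 22 (21.7%) reach furthest down, and chromosome 3 (20%) and X (18.4%) furthest up.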

How the data were processed

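RNA was extracted on columns with DNase treatment, depleted of ribosomal RNA and made into stranded libraries, in duplicate for each line, with nothing to say whether the duplicates came from separate cultures. Per the labels, the authors worked on hg19 and used TopHat2 2.0.11, Cuffnorm 2.2.1 and bedtools, and the deposited values are FPKM per gene for each library, normalised by the authors for transcript length and for library size. Summed FPKM was 659355 to 1124630 over the 10 libraries, of which small RNA genes held 24.5% to 62.4%, with median-ratio factors of 1 to 1.03. FPKM of very short genes is unstable. No column of the table lacked a group, and 0 were left unused for that reason.

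Columns were tied to lines by name, and the 2 columns of a line were averaged after log2(FPKM + 1). Genes with a line mean of at least 1 FPKM in at least 2 of 5 lines were tested with limma 3.58.1 (lmFit and eBayes with trend, R 4.3.3), 3 line means against 2, with Benjamini-Hochberg adjustment and a threshold of 0.05, which had been tested on simulated data. The p-values measure the spread between these lines. Genes were named as the 15 widest gaps in each direction and up to 4 widest gaps per direction in each list, together with list members needed to say which ones overlapped; some genes that this rule chose are not reported here. Lists and families were counted over all members in the table, with no filter, except that zinc finger genes were split by chromosome among those tested. Other genes, families, motifs and chromosome shares were chosen after their values were seen. The comparison, lists and members were chosen with earlier results of these data known. Gene positions are from GENCODE v44 lifted to GRCh37 and promoters from RefSeq. The alternatives were another pseudocount, other filters, rescaling by median ratios, leaving out small RNA genes, libraries as the unit with the line as a random block, no trend, and leaving out each line and each library. Reh libraries given PMA were left out as treated. Neighbouring or near-identical genes can share reads, and these values are uncertain for SNAR-G1, MAGE, histone, HLA-DRB and zinc finger genes.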

Additional observations from a re-analysis of the deposited data

Results flagged for a closer look

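Among the 50 groups whose libraries were not all equal (15 higher and 14 lower genes, Hodgkin and control libraries apart), 5 held a library far from the rest by Dixon's criterion. Its usual rate of 1 in 20 needs independent values, and libraries of a line are not independent. No expected number is therefore set beside this count. TES was at 84.4 FPKM in the index 1 column of L428, against 21.2 and 32.2 FPKM in L1236, and at 0.266 FPKM in one Namalwa library where the other 3 controls were listed at 0. GTSF1 was at 0.333 FPKM in one Reh library and listed at 0 in the other controls. In the lower genes, single Hodgkin libraries showed RAG2 at 0.0656 FPKM in KM-H2 and PLAC8 at 0.119 FPKM in L428, with the other 5 listed at 0. Except for TES in L428, these are values near 0 that leave the arms far apart. Where all other libraries of a group are listed at 0, any reading above 0 meets the criterion.

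The 2 libraries of Reh cells given PMA were not part of the comparison, and 5 of the 15 higher genes with the widest gaps had a level in both of them above every untreated control. No share of all genes is at hand to set beside this count. The 15 were picked for controls near 0, where a trace level is enough. The lower of the 2 libraries was at 303.0 FPKM for RGS1, 19.8 FPKM for BATF, 35.4 FPKM for LINC00152, 3.41 FPKM for CCND2 and 0.225 FPKM for ANXA1, where the highest untreated control library was at 0.85, 1.66, 0, 1.57 and 0 FPKM. The difference between treated and untreated Reh was not tested.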

How the results depend on the processing

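No paired analysis was possible because the columns of the table carry an index of 0 or 1 and not the replicate numbers of the labels, so the planned fit with a replicate block was not run. The column index itself was entered as a term, an alternative chosen after seeing the data. Index differences correlated at 0.316 to 0.718 between Hodgkin lines, at 0.373 between Namalwa and Reh and at −0.0203 to 0.2 between a Hodgkin and a control line, not above 0.1 for every pair. Counts of genes that rose and fell by limma, 81 and 70 as reported, were 98 and 45 with a pseudocount of 0.1 FPKM, 70 and 43 with a filter at 5 FPKM and 15 and 5 with no filter. They were 355 and 287 with libraries as the unit and the line as a random block, and 264 and 228 with the column index as a further term. Leaving out a Hodgkin line or any library gave 28 to 140 higher and 12 to 82 lower calls. Over the exclusions of any line or library 1366 to 2260 genes were non-overlapping and higher and 1191 to 1941 non-overlapping and lower, since fewer libraries overlap less often. With the Hodgkin columns of index 1 alone, also added after seeing the data, 1733 genes were non-overlapping and lower. With no filter 2 inflammasome and pattern recognition genes lay below the controls in place of 1 of those tested. Other counts stayed within 1.5 times of those over the genes tested.

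Of 191 genes followed one by one, 59 had been called. Of these 59, 10 lost the call without KM-H2, 40 without L1236 and 39 without L428. With libraries as the unit 67 further genes passed, and CD44 and S100A4 did with a pseudocount of 0.1 FPKM, S100A4 also without the trend and with index 0 columns alone, and UHRF1 with index 1 columns alone. No called gene changed sign. Genes near no difference did: over the exclusions CIITA ranged from −0.36 to 0.38, HLA-DRA from −0.47 to 0.94, RELA from −0.27 to 0.0802, CD74 from −0.0252 to 0.47, TNFAIP3 from −0.98 to 4.06 and RELB from −0.12 to 3.24. With index 1 columns alone CIITA was at −0.22 and RELA at 0.00263. The table gives no read totals, so counting error at low FPKM could not be set beside the values, and 3 lines against 2 limit what the test can detect.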

Other observations

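Gene families were grouped by symbol after the values had been seen, so their counts carry no test. Of 510 zinc finger genes named ZNF, 83 (16.3%) lay below every control library and 16 (3.14%) above, against 4.81% and 5.67% of all genes in the table. Those on chromosome 19, where KRAB zinc finger genes lie in clusters, made up most of this: of those that passed the filter, 50 of 188 (26.6%) lay below, against 21 of 202 (10.4%) of ZNF genes on other chromosomes and 59 of 702 (8.4%) of the other chromosome 19 genes. ZNF93 was at 0.0501 to 0.605 FPKM (median 0.31) in the Hodgkin libraries against 11.3 and 12.1 FPKM in Namalwa and 20.1 and 16.7 FPKM in Reh, and fell (limma adjusted p = 0.0262, and 0.0824 with a filter at 5 FPKM). ZNF525 and ZNF439 fell too, with Hodgkin libraries at 0 to 0.0295 FPKM and listed at 0 throughout, and controls at 6.81 to 10.5 and 6.43 to 17.6 FPKM. Both calls were lost with a pseudocount of 0.1 FPKM (limma adjusted p = 0.0574 and 0.0515) and with a filter at 5 FPKM (0.197 and 0.165), and that of ZNF439 with the Hodgkin columns of index 1 alone (0.0504). Neighbouring zinc finger genes are alike in sequence, and reads can be shared between them.

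Histone cluster genes, whose messages mostly lack a poly(A) tail and are seen here because total RNA was sequenced, lay below the controls where they separated: 20 of 73 (27.4%, against 4.81% of all genes in the table) below and 0 above. HIST1H4L was at 65.5 and 56 FPKM in L1236 and at most 0.794 FPKM in KM-H2 and L428, against 673 and 1184 FPKM in Namalwa and 1467 and 1564 FPKM in Reh. All 9 MCM genes passed the filter. MCM4, MCM5 and MCM7, subunits of the replicative helicase, lay below every control (33.3%, against 8.69% of all genes tested). The other 6 overlapped and none of the 9 passed the test. These 3 were at 24.2 to 65.7, 21.2 to 73.6 and 58.3 to 209.6 FPKM against 118 to 194, 124 to 191 and 271 to 372 FPKM. In the other direction, 5 of 37 MAGE genes (13.5%), 20 of 85 genes whose symbols start with IL and a number (23.5%), most of them for interleukins or their receptors, 6 of 26 myosin genes (23.1%) and 4 of 17 annexins (23.5%) lay above every control, against 5.67% of all genes in the table. Below every control lay 1 MAGE gene and 3 IL genes, and no myosin gene or annexin. PRAME, a tumour antigen, rose, at 34.2 to 95.6 FPKM (median 61.5) against 0 and 0.0434 FPKM in Namalwa and 2.57 and 0.819 FPKM in Reh (limma adjusted p = 0.0196, and 0.0556 with a pseudocount of 0.1 FPKM). LMNA, which encodes the lamins A and C of the nuclear envelope, was at 50.7 to 265 FPKM (median 124) against 2.51 and 2.02 FPKM in Namalwa and 0.484 and 0.377 FPKM in Reh (limma adjusted p = 0.0225), and MARCKS at 22.6 to 97.3 FPKM (median 42.7) against 1.33 and 0.755 FPKM in Namalwa and 0.0247 and 0 FPKM in Reh (limma adjusted p = 0.024).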
